A study of Mus musculus with 6 samples.

Results

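Astroglial genes expressed by quiescent neural stem cells of the adult mouse subventricular zone (SVZ) were followed after a cortical stroke. The set holds 10 genes, taken by name from the 34203 genes of the count matrix: Gfap, Aqp4, Gja1, Slc1a2, Slc1a3, Glul, Aldoc, Clu, Fam107a and Hopx. All 10 were found in the matrix and had UMIs. The question was whether their levels after injury differed within a stem cell subtype or only because the mix of subtypes differed, so every level was computed per library and per subtype.

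The cells came from Nestin-CreERT2:R26-yfp mice that were uninjured or were killed 1 day (PT D1) or 7 days (PT D7) after photothrombotic ischemia (PT), a cortical lesion made with Rose Bengal and cold light. All mice had received tamoxifen for 5 days at 8 to 12 weeks of age, and PT followed 5 to 14 days after it, so YFP marks cells in which the Nestin-driven recombinase had been active together with their progeny. YFP+ neural stem and progenitor cells (NSPCs) and CD11b+CD45low microglia were sorted from the lateral SVZ, on the lesion side in injured mice, and sequenced by mCEL-Seq2, which counts unique molecular identifiers (UMIs). Each of the 3 conditions had 2 libraries of 192 wells, and the enzyme for dissociation was measured out per 5 mice, but which mice, how many and which plate stood behind each library is not given in the sources used here. Condition and plate therefore cannot be told apart. The p-values measure only the spread between these libraries, or between their sums per subtype, which may be technical.

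In the SVZ, the adult stem cell is itself a kind of astrocyte. The quiescent type B cell keeps the transporters, gap junctions and metabolic enzymes of astroglia, and these are lost stepwise as it is activated, becomes a dividing type C cell and gives rise to neuroblasts. Astrocytes of injured brain tissue typically raise intermediate filaments such as GFAP, and the same filament marks type B cells in the healthy SVZ, so GFAP alone does not separate a reactive astrocyte from a stem cell.

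The deposited matrix holds 658 cells that passed the authors' quality control, of which 222 are NSPCs by the authors' annotation, 416 microglia and 20 a mixed class. By subtype the NSPCs are 50 quiescent and 45 activated type B cells, 80 neuroblasts and 47 type C cells, the dividing progeny of the activated cells. The 6 libraries hold 413299 to 1020667 UMIs in all and 82504 to 497292 in NSPCs. Library 1 of every condition was small, with 15 to 19 NSPCs and 3 or 4 quiescent type B cells, against 52 to 61 NSPCs and 11 to 14 quiescent type B cells in library 2. The cell names of both PT D7 libraries begin alike. Their library numbers were read from the last number before the cell and are not certain, while their condition is. Activated type B cells were absent from PT D7 library 1. No cell barcode name occurred more than once. The authors drew the subtypes from expression that included these genes. When clusters were drawn again with the 10 genes left out of the counts, all 50 quiescent type B cells fell together again and 202 of the 222 NSPCs (91.0%) kept their subtype, so leaving these genes out moved no cell out of the quiescent class.

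Gfap, Gja1 and Fam107a were the genes of the set that passed a test at PT D1 in NSPCs or in quiescent type B cells, or with the subtype as a term, and the sequence before the transcription start is shown for Gfap and Fam107a, the genes that rose. The windows are the nearest 250 bases before the start of the main transcript that overlap no annotated exon, read from GRCm39 with the GENCODE vM39 annotation, 5′ to 3′ on the strand of the gene. The Gfap window is chr11:102788186-102788435 on the minus strand and ends at the start itself. The Fam107a window is chr14:14159627-14159876 on the plus strand and ends 117 bases before the start. Capitals would mark a STAT motif (TTCNNNGAA) or an AP-1 motif (TGANTCA), searched on both strands, and there are none.
Gfap: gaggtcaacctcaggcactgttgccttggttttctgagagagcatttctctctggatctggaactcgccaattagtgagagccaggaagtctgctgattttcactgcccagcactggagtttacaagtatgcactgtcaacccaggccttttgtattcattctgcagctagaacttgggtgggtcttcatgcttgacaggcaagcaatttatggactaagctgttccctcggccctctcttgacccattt
Fam107a: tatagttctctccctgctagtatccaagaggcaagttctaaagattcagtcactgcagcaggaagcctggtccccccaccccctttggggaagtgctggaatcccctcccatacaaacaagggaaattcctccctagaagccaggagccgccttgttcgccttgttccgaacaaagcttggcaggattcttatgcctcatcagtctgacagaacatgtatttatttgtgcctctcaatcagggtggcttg
The letters of the STAT motif were in none of the 9 windows of the set that were searched, against 1649 of 21248 such windows over all genes (7.76%). The AP-1 letters were also in none of the 9, against 1496 of 21248 (7.04%). Not all windows lie next to the start. That of Glul ends 3469 bases before it, and those of Hopx, Slc1a3 and Clu end 685, 547 and 479 bases before it. The counts describe these windows only and carry no information on binding.

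Levels are given as UMIs per 1000000 UMIs of the cells named (CPM), without further scaling, and since genes differ in length and capture they are compared within a gene. Across the 4 subtypes all 10 genes were highest in quiescent type B cells, also when every cell weighed the same and when every cell was thinned to 1000 UMIs. Quiescent type B cells held 19.1% of the UMIs of NSPCs but 94.8% of those of Clu, 91.7% of Aqp4, 91.3% of Aldoc, 89.3% of Gja1, 89.2% of Gfap and 87.4% of Fam107a. Their share was 78.2% for Slc1a2, 73.1% for Slc1a3, 69.2% for Glul and 53.2% for Hopx. For 9 of the 10 genes the lowest quiescent library lay above the highest library of activated type B cells, and Hopx was the exception. These levels are a description without a test, since the subtypes were defined by expression.

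**Figure D1:**
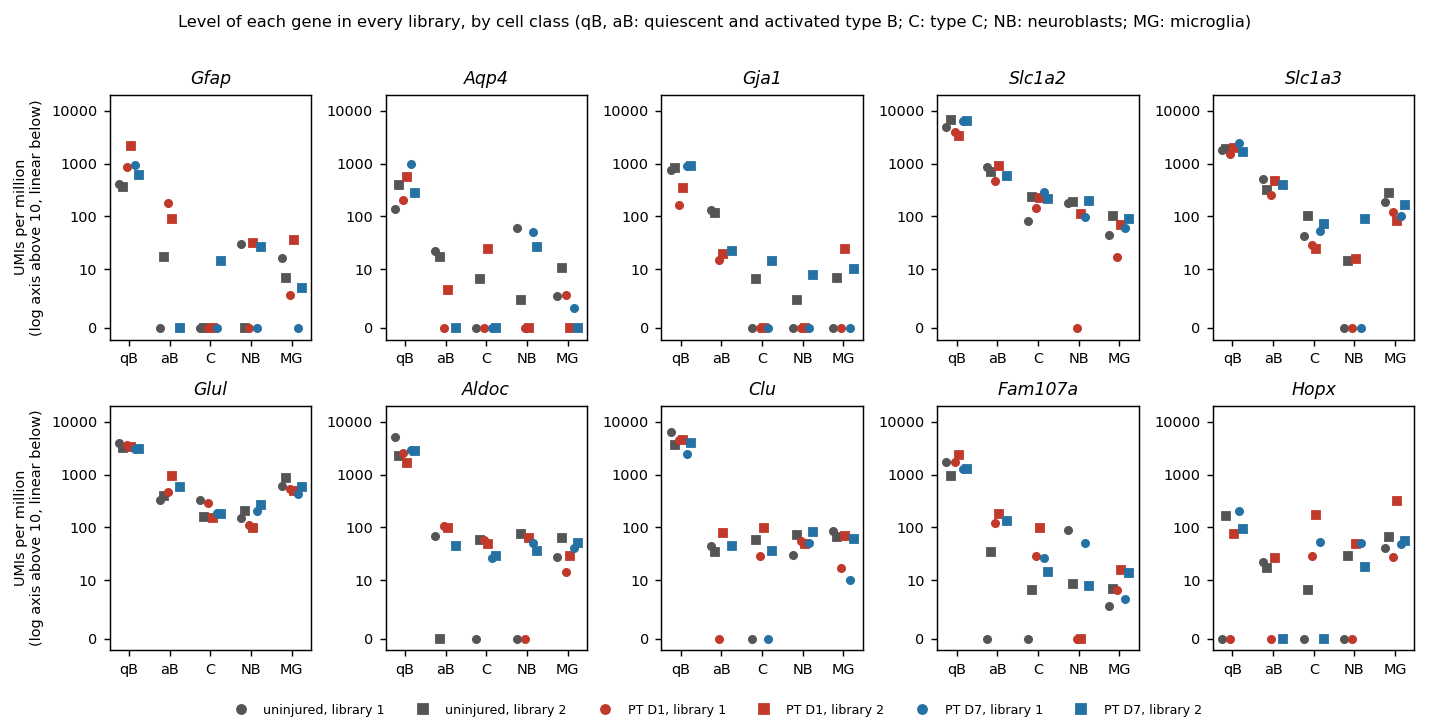
Level of each of the 10 genes in CPM (UMIs per 1000000, log axis above 10, linear below) in quiescent (qB) and activated (aB) type B cells, type C cells (C), neuroblasts (NB) and microglia (MG). Each point is 1 library, and the quiescent points lie above all others for every gene but Hopx.

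Gfap encodes the intermediate filament protein of astrocytes and lies on chromosome 11 from 102778159 to 102791738, minus strand. Its level over all quiescent type B cells was 963 CPM, with 355 to 2132 in the 6 libraries, and 64.9 CPM in activated type B cells (0 to 179 in 5 libraries). Neuroblasts at 13.0 CPM and type C cells at 5.06 CPM did not stand apart from microglia at 13.4 CPM (0 to 35.7 in the libraries). Aqp4, the water channel of astrocyte endfeet (chromosome 18, 15522451 to 15544039, minus strand), was at 442 CPM in quiescent type B cells, with 139 to 1006 in the libraries. In the other subtypes Aqp4 lay between 5.06 and 15.2 CPM, where the ranges of the libraries overlapped. Gja1, which encodes the gap junction protein connexin 43 (chromosome 10, 56253241 to 56278609, plus strand), was at 664 CPM in quiescent and 45.6 CPM in activated type B cells, with 167 to 898 and 14.9 to 134 in the libraries. Type C cells at 7.59 CPM and neuroblasts at 4.35 CPM were at the level of microglia for Gja1 (8.07 CPM). For these 3 genes most UMIs of NSPCs lay in quiescent type B cells. Over the 3 conditions the libraries of activated type B cells overlapped those of microglia, but not in every condition. Uninjured activated cells held 119 and 134 CPM of Gja1, where microglia reached 24.6 CPM, and the injured ones 14.9 to 22.0 CPM. PT D1 activated cells held 90.5 and 179 CPM of Gfap, and the other activated libraries 0 to 17.0 CPM.

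Pooled over the 3 conditions, the glutamate handling genes dropped less between quiescent and activated type B cells than the 3 genes above. Of the 45 activated cells 25 came from PT D1. The quiescent level was 7.65 times the activated one for Slc1a2, 4.68 times for Slc1a3 and 5.00 times for Glul. It was 14.8 times for Gfap, 61.3 times for Aqp4 and 14.6 times for Gja1. Only 2.07% of the 145 Aqp4 UMIs of NSPCs lay in activated cells. In uninjured libraries quiescent cells held 765 to 825 CPM of Gja1 and activated cells 119 to 134. For Glul these were 3138 to 4031 and 336 to 390, so there Gja1 dropped less than Glul. For Slc1a2 they were 5004 to 6853 and 695 to 851, and by the means Gja1 dropped less than Slc1a2 too. For Slc1a3 they were 1807 to 1881 and 322 to 515. In uninjured libraries the pooled order of Gja1 thus held against Slc1a3 only. Slc1a2, the transporter GLT-1 (chromosome 2, 102488574 to 102621129, plus strand), went from 5528 CPM in quiescent to 723 CPM in activated type B cells, 215 CPM in type C cells and 167 CPM in neuroblasts. Slc1a3, the transporter GLAST (chromosome 15, 8663604 to 8741595, minus strand), went from 1876 to 401, 68.3 and 30.4 CPM in the same order. The libraries of activated type B cells lay above all type C libraries for both transporters, at 461 to 899 against 83.7 to 293 CPM for Slc1a2 and 253 to 515 against 24.5 to 100.1 CPM for Slc1a3. The same separation held for Gja1 and Glul. Type C cells and neuroblasts overlapped for both transporters. Microglia held 65.4 CPM of Slc1a2 and 160 CPM of Slc1a3, so for Slc1a3 type C cells and neuroblasts lay below microglia. Glul, glutamine synthetase (chromosome 1, 153775690 to 153785469, plus strand), was at 3234 CPM in quiescent and 646 CPM in activated type B cells and at 190 and 196 CPM in type C cells and neuroblasts. Microglia held 599 CPM of Glul, within the range of activated type B cells (336 to 944 in the libraries) and above type C cells and neuroblasts.

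Aldoc, a glycolytic aldolase of astrocytes (chromosome 11, 78213619 to 78218889, plus strand), was at 2434 CPM in quiescent type B cells and between 40.5 and 69.7 CPM in the other subtypes. Clu, the secreted chaperone clusterin (chromosome 14, 66190200 to 66218999, plus strand), was at 4018 CPM against 43.0 to 65.2 CPM in the others. For both the 3 later subtypes overlapped, and microglia held 37.6 CPM of Aldoc and 52.9 CPM of Clu, so the drop came in the step from the quiescent to the activated state. Fam107a, an actin-associated gene (chromosome 14, 14151750 to 14173507, plus strand), went from 1514 to 120 CPM between quiescent and activated type B cells and was at 22.8 CPM in type C cells and 15.2 CPM in neuroblasts. Hopx, an atypical homeobox gene (chromosome 5, 77234831 to 77263022, minus strand), was the scarcest in UMIs, with 62 in all NSPCs. It was at 110 CPM in quiescent type B cells, 14.4 to 27.8 CPM in the other subtypes and 101 CPM in microglia, and the ranges of all these classes overlapped.

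Single cells gave the same order. A quiescent type B cell had UMIs of a median of 8 of the 10 genes, with a range of 5 to 10, against medians of 4 for the activated state, 3 for type C cells and 2 for neuroblasts as for microglia. Thinned to 1000 UMIs per cell, which removes differences in depth, the medians were 6, 2, 0, 0 and 1. UMIs of Slc1a2, Slc1a3, Aldoc and Glul were found in all 50 quiescent type B cells. Gfap UMIs were found in 25 of the 50 (50.0%, exact 95% interval 35.5 to 64.5%), against 20 of 416 microglia (4.81%), at median depths of 5302.5 and 4854.5 UMIs. Such intervals cover counting error only. Hopx UMIs were in 14 of 50 quiescent cells (28.0%) and in 100 of 416 microglia (24.0%), so no difference between these was detectable at this depth.

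Within quiescent type B cells Gfap was higher and Gja1 lower at PT D1 in both libraries. The uninjured libraries 1 and 2 held 417 and 355 CPM of Gfap, those of PT D1 877 and 2132 CPM and those of PT D7 926 and 623 CPM. The PT D1 libraries thus lay above both uninjured ones but overlapped PT D7. UMIs were summed over the quiescent type B cells of each library, and the 3 conditions were fitted together by the quasi-likelihood method of edgeR, adjusting p over 506 genes (Benjamini-Hochberg), with a call at an adjusted p under 0.05. By this test the PT D1 level of Gfap rose by 1.94 ± 0.46 on the log2 scale (adjusted p = 0.0369). Throughout, ± is the standard error of the fold change, which for edgeR was worked back from the F statistic of the test. Gfap was the only call among the 9 genes of the set that passed the filter on low counts, where 2.37% of all genes tested were called. Hopx did not pass that filter.

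Gja1 moved the other way. Uninjured libraries held 765 and 825 CPM of Gja1, PT D1 libraries 167 and 353 CPM and PT D7 libraries 886 and 898 CPM. The highest PT D1 library was thus below the lowest of the 4 remaining libraries. The log2 fold change was -1.59 ± 0.43 against uninjured, which missed the threshold (adjusted p = 0.0623), and between PT D7 and PT D1 it was 1.67 ± 0.43 (adjusted p = 0.0691), where 1.58% of all genes were called. The PT D7 against PT D1 fit by edgeR called 0 of the 9 genes, DESeq2 also called 0, and 3 of the 9 had an unadjusted p under 0.05 (Gja1, Gfap and Slc1a2). It called 1 with the replicate block, without PT D1 library 2 and without uninjured library 1.

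Slc1a2 had the profile of Gja1 at a smaller size, with 5004 and 6853 CPM in uninjured, 4052 and 3418 CPM in PT D1 and 6522 and 6399 CPM in PT D7 libraries. Both PT D1 libraries were the lowest of the 6, but the fitted difference did not pass the test (log2 fold change -0.80, adjusted p = 0.256). Fam107a was at 1738 and 931 CPM in uninjured, 1754 and 2397 CPM in PT D1 and 1288 and 1283 CPM in PT D7 libraries, where PT D1 library 1 hardly exceeded uninjured library 1 (0.67, adjusted p = 0.341). Aldoc, at 5213 and 2275 CPM in uninjured against 2506 and 1690 CPM in PT D1 libraries, overlapped between conditions (-0.87, adjusted p = 0.268).

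The 4 remaining genes tested were closer to their uninjured levels at PT D1, with log2 fold changes of -0.18 for Slc1a3, -0.16 for Clu, -0.13 for Glul and 0.20 for Aqp4, the last with a standard error of 0.60. Slc1a3 was at 1807 and 1881 CPM in uninjured, 1546 and 1943 CPM in PT D1 and 2456 and 1668 CPM in PT D7 libraries. Glul stayed between 3007 and 4031 CPM in all 6 libraries. Clu was at 6325 and 3570 CPM, then 4595 and 4566 CPM, then 2496 and 3905 CPM in the same order. Aqp4 ran from 139 to 1006 CPM with no order between conditions, and Hopx had no UMI in uninjured library 1 and PT D1 library 1, which allows up to 209 and 125 CPM. Over the 9 genes the median log2 fold change at PT D1 was -0.16, against 0.03 over all 506 genes. In 4 of the 9 genes the PT D1 and uninjured libraries did not overlap (Gfap and Fam107a higher, Gja1 and Slc1a2 lower), where 50.4% of all genes tested did not overlap, so this count is no result about the set.

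**Figure D2:**
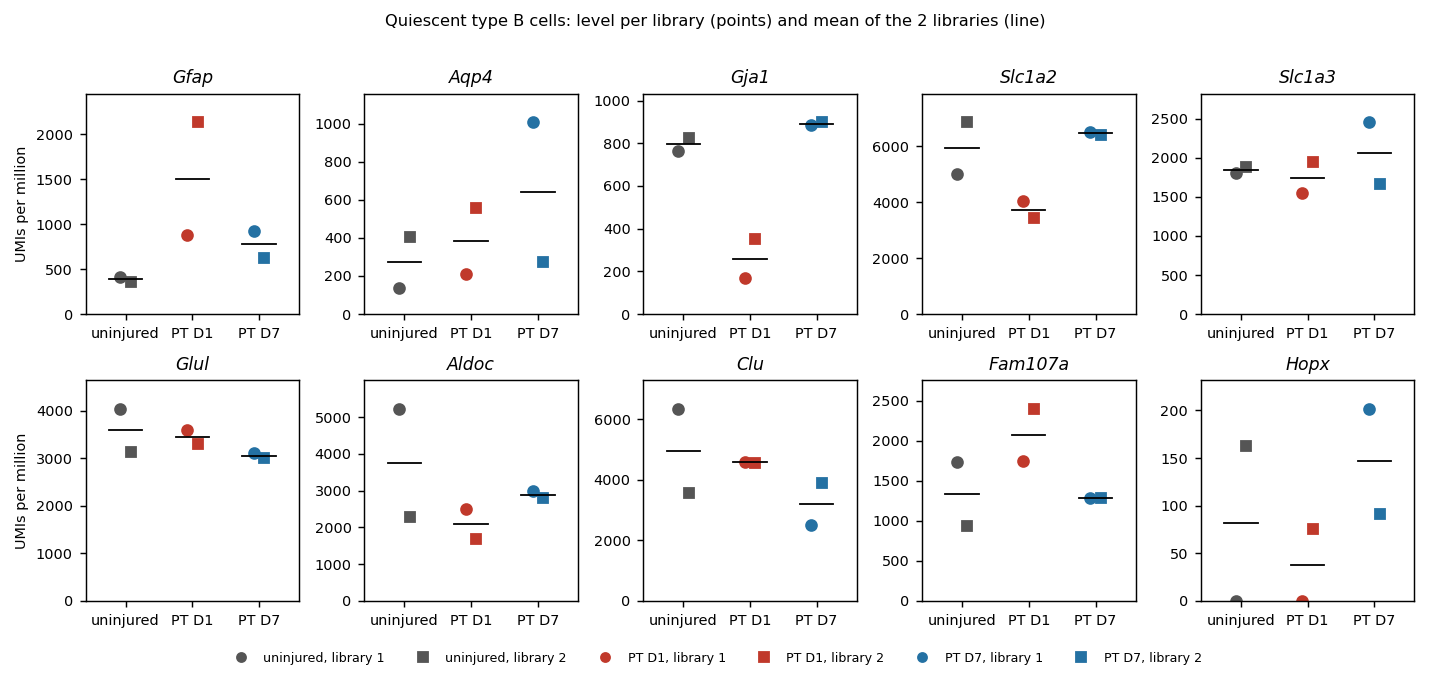
Level of each gene in quiescent type B cells in CPM, by condition. Points are the 2 libraries of a condition (circle: library 1, square: library 2) and the line is their mean. Gja1 and Slc1a2 are lowest in both PT D1 libraries, and Gfap is lowest in both uninjured libraries.

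The cells behind these sums differed. The median quiescent cell of uninjured mice held 0 Gfap UMIs, against 6.5 for PT D1 and 0 for PT D7. Gfap UMIs were found in 7 of 17 uninjured, 13 of 18 PT D1 and 5 of 15 PT D7 cells, and after thinning in 2, 11 and 3. In uninjured mice 1 cell gave 29 of the 43 Gfap UMIs (67.4%), and only 1 of 17 cells had 5 or more, against 9 of 18 cells at PT D1, where the highest cell gave 52 of 190 (27.4%). At PT D7 the counts again rested on few cells: 23 of 23 UMIs in library 1 and 25 of 34 in library 2 came from 1 cell each. The PT D1 cells came mostly from library 2 (14 of 18), and in PT D1 library 1 Gfap UMIs were found in 2 of 4 cells, 12 of 21 UMIs in 1 of them.

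The lower Gja1 level was seen in most cells. The median per cell was 5 UMIs in uninjured cells, 1.5 for PT D1 and 4 for PT D7, and 9 of 17, 1 of 18 and 7 of 15 cells held 5 or more. Cells with a Gja1 UMI numbered 17 of 17, 12 of 18 and 14 of 15. The median of Slc1a2 was 28, 13.5 and 27 UMIs per cell and that of Fam107a was 6, 11 and 6. Median depths of the quiescent cells were 6028, 5947 and 4731 UMIs in these conditions, so PT D1 and uninjured cells were of like depth. Aqp4 rested on single cells in every condition, with 52.3%, 71.4% and 52.5% of its UMIs in the highest cell. Over the 50 quiescent cells Gfap and Gja1 had the lowest rank correlation of the 45 pairs (Spearman -0.24) and Slc1a2 and Gja1 the highest (0.55), with a median of 0.19. These are descriptions across cells that share libraries and differ in depth.

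**Figure D3:**
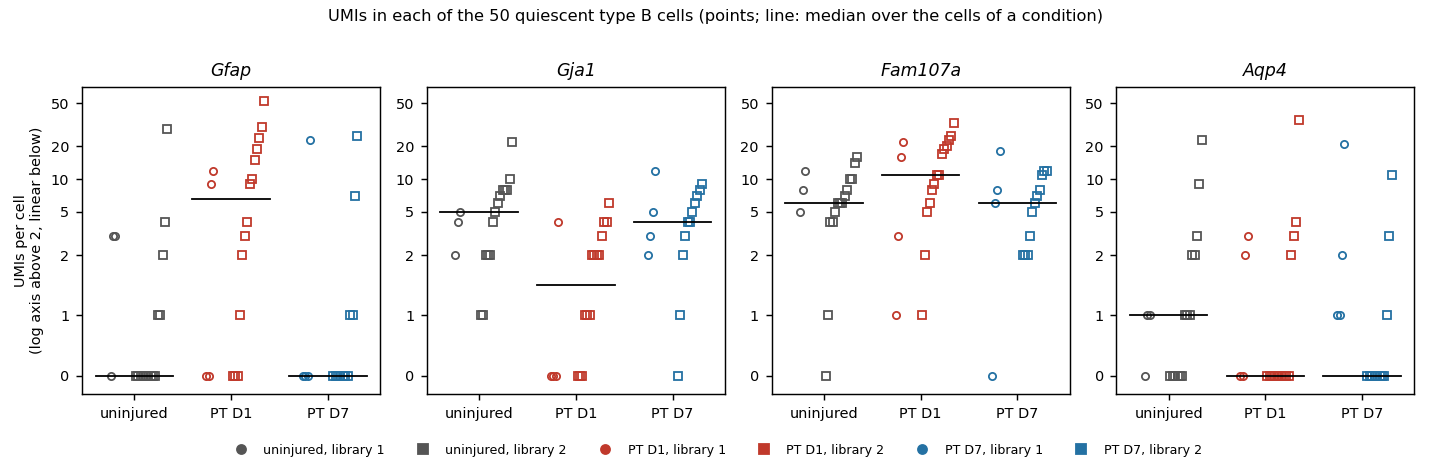
UMIs of Gfap, Gja1, Fam107a and Aqp4 in each of the 50 quiescent type B cells (log axis above 2, linear below), by condition and library. Each point is a cell and each line the median over the cells of a condition. The Gfap median is 6.5 at PT D1 and 0 in the other conditions, and the Gja1 median is 1.5 at PT D1 against 5 in uninjured cells.

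Some other signals moved with PT D1 in the same cells. The summed level of 12 genes induced by tissue dissociation and stress, such as Fos and Jun, was 2673 and 2548 CPM in the quiescent cells of the PT D1 libraries, against 209 and 346 CPM in uninjured and 604 and 348 CPM in PT D7 libraries. The 8 choroid plexus markers summed to 2224 and 3234 CPM in the uninjured libraries and 50.5 to 251 CPM in the 4 PT libraries, with Folr1, Kcnj13 and Aqp1 at 0 in quiescent cells. The 8 microglia markers summed to 1182 and 931 CPM in uninjured, 1546 and 1261 CPM in PT D1 and 6965 and 752 CPM in PT D7 libraries. Their part in the differences of Gfap and Gja1 was not tested. The 8 mature astrocyte markers, all with UMIs, lay at 348 and 365 CPM in uninjured and 376 and 378 CPM in PT D1 libraries. PT D7 library 1 stood at 725 CPM. These sums rest on few UMIs, so a small difference was not detectable. The reactive astrocyte genes listed further below summed to 2016 and 1612 CPM in uninjured and 3718 and 6635 CPM in PT D1 libraries. In PT D7 libraries they summed to 3301 and 3117 CPM. The relation of these 2 lists to Gfap was not tested.

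The call of Gfap in quiescent cells was lost with DESeq2 (fold change 1.89, adjusted p = 0.113) and without any of 3 libraries. The log2 fold change was 1.13 without PT D1 library 2 (adjusted p = 0.317), 2.0 without PT D7 library 2 (0.0666) and 1.97 without uninjured library 2 (0.278). Over the alternatives the adjusted p was 8.95e-04 to 0.966. When cells with UMIs of 3 or more of the 8 microglia markers were left out, a rule added after the data had been seen that left 22 of the 50 quiescent cells, the Gfap log2 fold change was 0.19 (adjusted p = 0.966). PT D1 library 1 then held 1 cell with 0 Gfap UMIs, and uninjured library 2 held 4 cells with 29.

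In all NSPCs the levels combine both sources of difference. Uninjured libraries held 60.2 and 76.4 CPM of Gfap, PT D1 libraries 230 and 548 CPM and PT D7 libraries 279 and 98.6 CPM. Fam107a was at 241 and 205 CPM, then 355 and 657 CPM, then 412 and 215 CPM. In the edgeR fit of 4907 genes, where 2.12% were called at PT D1, Gfap (log2 fold change 2.42 ± 0.41, adjusted p = 0.00175) and Fam107a (1.19 ± 0.31, adjusted p = 0.0408) rose and were the 2 calls among the 10 genes. Gja1, at 146 and 191 CPM in uninjured against 34.8 and 91.8 CPM in PT D1 libraries, gave -1.37 ± 0.39 and missed the threshold (adjusted p = 0.0655). The median over the 10 genes was 0.20, against 0.03 over all genes, and it was -0.38 without PT D1 library 2 and 0.53 without PT D1 library 1. Both calls were lost with DESeq2 (adjusted p = 0.143 for Gfap and 0.288 for Fam107a), and that of Fam107a also without PT D1 library 2 (fold change 0.58, adjusted p = 0.539) or uninjured library 2 (adjusted p = 0.146). Among all alternatives the adjusted p lay between 5.86e-13 and 0.997 for Gfap and between 5.67e-05 and 0.997 for Fam107a. With the microglia marker rule, which left out 138 of the 222 NSPCs, both fold changes turned negative (-0.68 and -0.53). The median of the 8 genes of the set tested under that rule was -1.29, against 0.01 over all genes, and all 8 were negative.

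The subtype mix was then held equal, by giving each library the mean UMI shares of the 4 subtypes over the 6 libraries together with its own levels within subtypes. PT D7 library 1 had no activated type B cells and was given the level of PT D7 library 2 for them. With the mix held, Gfap stood at 89.4 and 74.1 CPM in the uninjured libraries and at 221 and 450 CPM at PT D1. The ratio of the means was then 4.10, against 5.69 as measured. In the converse arithmetic each library kept its own mix while the levels within subtypes were the mean of the 6 libraries, and the Gfap ratio was 1.22. Of the mean difference of 320 CPM, 254 CPM belonged to levels within subtypes, 37.2 CPM to the mix and 29.4 CPM to both together. The mix part thus had the sign of the level part for Gfap and was the smaller of both.

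For Gja1 both parts had opposite signs. The level part was -137 CPM and the mix part 33.1 CPM, so that with the mix held the ratio was 0.289, below the 0.375 measured. With the mix held, Gja1 was at 187 and 198 CPM in uninjured, 36.8 and 74.5 CPM in PT D1 and 179 and 188 CPM in PT D7 libraries, where the 179 contains the filled-in level. Slc1a2 behaved alike, with a ratio of 0.819 as measured, 0.671 with the mix held and 1.25 with levels held. Fam107a had a ratio of 2.27 as measured, 1.66 with the mix held and 1.22 with levels held. For 9 of the 10 genes the levels-held ratio at PT D1 lay between 1.135 and 1.33 and it was 0.961 for Hopx. With levels held, the uninjured and PT D1 libraries overlapped for every gene but Slc1a3. For Gfap they stood at 133 and 199 against 173 and 233 CPM, and for Gja1 at 103 and 144 against 135 and 179 CPM. The arithmetic used shares of UMIs. By number of cells, activated type B cells made up 31.6% and 36.5% of the NSPCs in the PT D1 libraries, against 25% and 6.78% in the uninjured ones. Quiescent cells made up 21.1% and 26.9% against 18.8% and 23.7%. Glul and Slc1a3 illustrate the difference: their ratios of 1.37 and 1.18 as measured became 1.05 and 0.904 with the mix held. These ratios are arithmetic on the means of 2 libraries a condition and carry no test.

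**Figure D4:**
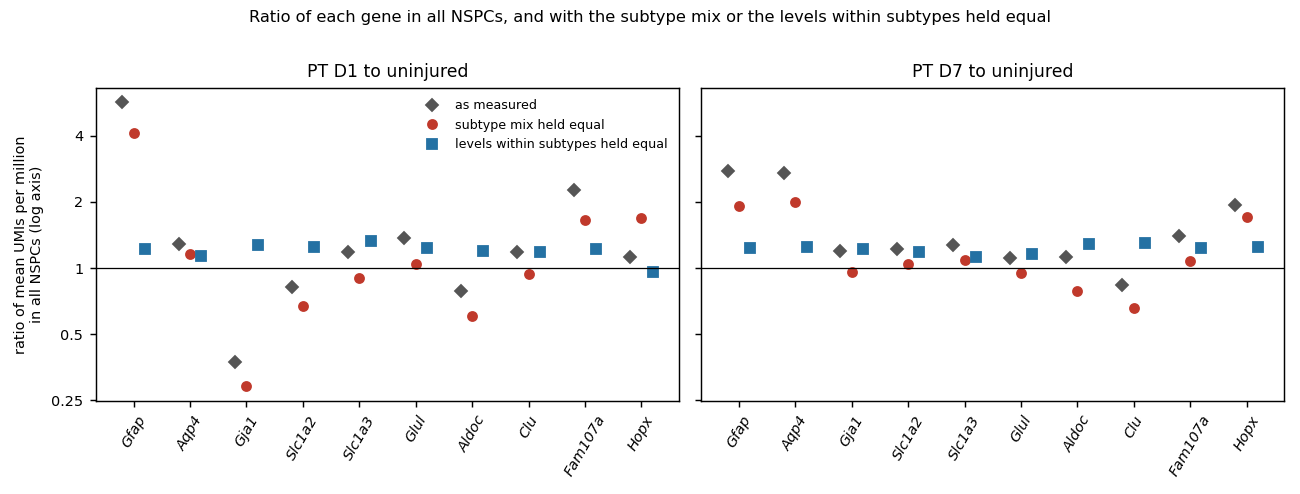
Ratio of mean levels in all NSPCs (log axis) at PT D1 and PT D7 to uninjured, for each gene. Diamonds are the measured ratios, circles those with the subtype mix held equal and squares those with levels within subtypes held equal. At PT D1 the Gfap and Gja1 circles (4.10 and 0.289) lie close to the diamonds (5.69 and 0.375), while the squares of all genes lie between 0.961 and 1.33. For PT D7 the circles use the activated type B level of library 2 in library 1 also.

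A test with the mix as a term was made with limma-voom on 23 sums over library and subtype, with condition and subtype as terms and the library as a block. Sums of 1 library share their source, and their estimated correlation was -0.0052. At so small a correlation the p-values count sums of 1 library almost as separate replicates, though each condition had 2 libraries. This fit gave 1 effect of PT D1 common to the subtypes, with 3.81% of 2625 genes called. Gfap rose (log2 fold change 1.93 ± 0.39, adjusted p = 0.00218) and Gja1 fell (-1.38 ± 0.34, adjusted p = 0.018). Fam107a (1.01 ± 0.32, adjusted p = 0.0626) and Slc1a2 (-0.61 ± 0.22, adjusted p = 0.104) missed the threshold. The other 6 genes had fold changes between -0.29 and 0.14. Both calls were lost without PT D1 library 2, with 1.39 for Gfap (adjusted p = 0.116) and -1.61 for Gja1 (0.0622), and without uninjured library 2, with 1.65 (0.0721) and -1.24 (0.0971). The range over the alternatives was 4.68e-05 to 0.116 for Gfap and 0.0083 to 0.0971 for Gja1.

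**Figure D5:**
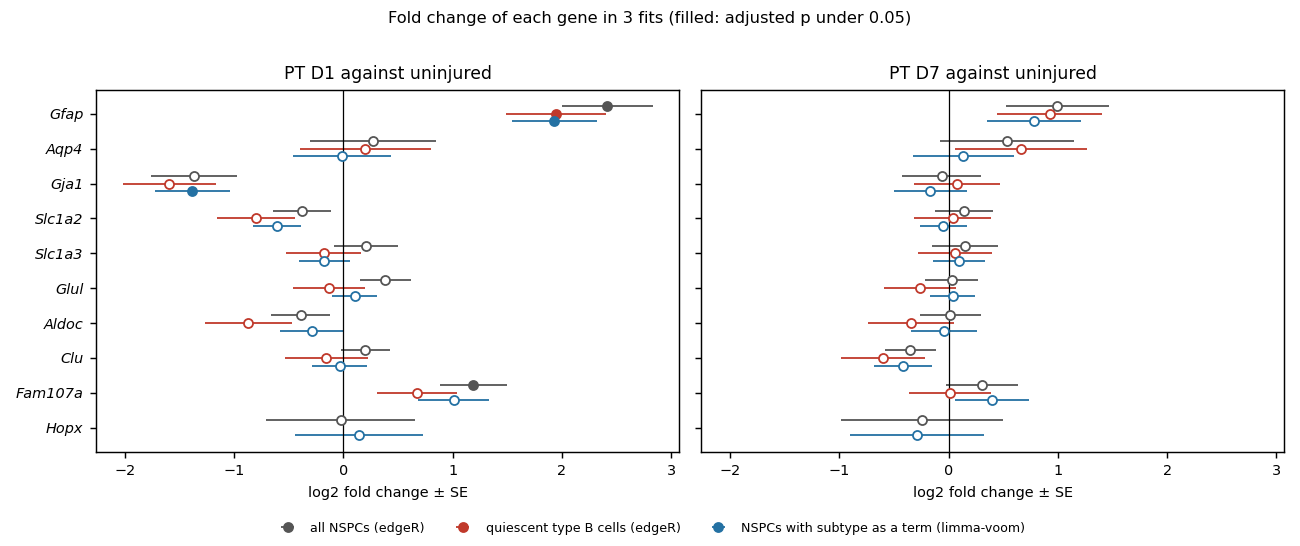
Log2 fold change ± standard error of each gene at PT D1 and PT D7 against uninjured, in all NSPCs and in quiescent type B cells (edgeR) and in NSPCs with subtype as a term (limma-voom). Filled points have an adjusted p under 0.05: Gfap in all 3 fits, Gja1 with subtype as a term and Fam107a in all NSPCs, all at PT D1.

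In activated type B cells Glul passed the test at PT D1, and Fam107a is given as a description only. Glul was at 336 and 390 CPM in the uninjured libraries and at 476 and 944 CPM at PT D1, and rose in the edgeR fit (log2 fold change 1.10 ± 0.30, adjusted p = 0.0137). Fam107a was at 0 and 33.9 CPM in uninjured libraries, from 0 and 2 UMIs, and at 119 and 181 CPM at PT D1, from 8 and 28 UMIs. Fam107a entered this fit only through its counts after PT, and the uninjured side held 4 cells per library, so its values are given as a description with no fold. Of 5 genes of the set tested these 2 were under the threshold, with 3.18% of 1727 genes called. Gfap too entered the fit only through PT D1, with 0 CPM at PT D7, so this count is no result about the set. Neither gene was called with DESeq2 (adjusted p = 0.997 for Glul) or where the clusters were drawn without the 10 genes. The Glul call was also lost with any 1 library left out. Over the alternatives its adjusted p ran from 0.0329 to 0.997.

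Gfap in activated type B cells was at 0 and 17.0 CPM in uninjured and 179 and 90.5 CPM in PT D1 libraries, from 0, 1, 12 and 14 UMIs, and was not called (adjusted p = 0.311). Gja1 was at 134 and 119 CPM in uninjured and 14.9 and 19.4 CPM in PT D1 libraries, from 6, 7, 1 and 3 UMIs, which was under the filter. Both genes thus lay on the same side as in quiescent cells, without a test for Gja1. In type C cells only Glul could be tested and was not called by edgeR or DESeq2 (log2 fold change 0.07, unadjusted p = 0.907), with 0.156% of 640 genes called. In neuroblasts none of the 10 genes passed the filter on low counts. The difference of the PT D1 effect between quiescent and activated type B cells was tested in limma-voom with an interaction term. It was called for 0% of 2625 genes and for none of the 10, of which Aldoc, Fam107a and Glul had an unadjusted p under 0.05. No second tool was run for it.

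At PT D7 no gene of the set was called in any fit. In all NSPCs Gfap had a log2 fold change of 1.00 ± 0.47 against uninjured and was the 1 gene of the 10 with an unadjusted p under 0.05 (adjusted p = 0.995), with 0.0815% of 4907 genes called. In quiescent type B cells it was 0.93 ± 0.48 (adjusted p = 0.939), with 0.198% of 506 genes called and none of the 9 genes under an unadjusted 0.05. DESeq2 also called none of the set in either. Gja1 and Slc1a2 had log2 fold changes of 0.08 ± 0.39 and 0.04 ± 0.35 in quiescent cells, differences smaller than their standard errors.

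With subtype as a term at PT D7 none of the 10 was called by limma-voom, none had an unadjusted p under 0.05 and 0.229% of 2625 genes were called. In activated type B cells none of 5 was called, with Fam107a under an unadjusted 0.05 and 0.579% of 1727 genes called. The PT D7 libraries of quiescent cells did not overlap the uninjured ones for 3 of 9 genes (Gfap and Gja1 higher, Glul lower), against 34.2% of all genes. Between PT D7 and PT D1 in all NSPCs, 0 of the 10 were called by edgeR or DESeq2 and 4 had an unadjusted p under 0.05, with 0.632% of genes called. Among these Gfap gave -1.42 ± 0.40 (adjusted p = 0.107) and Gja1 1.30 ± 0.41 (adjusted p = 0.17). Both comparisons of PT D1 share its libraries, so these are not independent of the difference from uninjured.

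Microglia of the same libraries served as background for free RNA and as a comparison. Gfap in microglia lay between 0 and 35.7 CPM in the 6 libraries and Gja1 between 0 and 24.6 CPM, both with their highest value in PT D1 library 2. Of the 6 genes that passed the filter there, edgeR called 0 at PT D1, 2 had an unadjusted p under 0.05 and 5.7% of 4846 genes were called. DESeq2 was not run on microglia. These 2 were Slc1a3 (log2 fold change -1.08 ± 0.31, adjusted p = 0.0662) and Hopx (1.79 ± 0.72, adjusted p = 0.178).

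The other genes of these pathways were taken from 3 lists. Of 20 genes of astroglial transport and metabolism, 12 were tested in quiescent type B cells and 0 were called by edgeR at PT D1, with a median log2 fold change of -0.49 against 0.03 over all genes, and in all NSPCs 0 of 16 were called with a median of 0.15. Over all genes tested 2.37% were called in quiescent type B cells and 2.12% in all NSPCs, so the counts of this list and the next are no result about them. Of 20 further genes of quiescent type B cells, 15 were tested in these cells and 1 fell. This was Plpp3, a lipid phosphatase, at 2919 and 2524 CPM in uninjured, 1170 and 997 CPM in PT D1 and 2375 and 1980 CPM in PT D7 libraries (log2 fold change -1.43 ± 0.34, adjusted p = 0.0369). Plpp3 was called in 4 of 15 alternatives, with fold changes of -1.85 to -1.26 and adjusted p from 6.08e-04 to 0.913 (0.0666 with DESeq2). Among the 4 are the redrawn clusters and the rule of at least 1 cell per library, which held the same 50 cells and repeat the main fit.

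Of 27 reactive astrocyte genes, 13 were tested in all NSPCs and 3 were under the threshold at PT D1, all higher, with a median of 1.30. Over all genes 2.12% were called and the median was 0.03. Cd44 and Socs3 needed their PT D1 libraries to pass the filter on low counts. Their values and the median of the list are therefore given as a description only, and the count of 3 is no result about the list. Cd44, a hyaluronan receptor, was at 8.61 and 10.1 CPM in uninjured and 83.5 and 77.0 CPM in PT D1 libraries. These came from 1 and 5 UMIs in uninjured and 12 and 26 UMIs in PT D1 libraries. Socs3, a feedback inhibitor of STAT signaling, was at 17.2 and 18.1 against 55.7 and 148 CPM, from 2 and 9 against 8 and 50 UMIs. Ifitm3, an interferon-induced gene, was at 25.8 and 20.1 against 125 and 121 CPM (edgeR, adjusted p = 0.019). The Ifitm3 call was lost without uninjured library 2 (log2 fold change 2.21). It was also lost in cells of at most 10% mitochondrial UMIs (edgeR, adjusted p = 0.997). DESeq2 gave Ifitm3 no adjusted p (unadjusted p = 0.00297). All 3 genes were under the filter in thinned cells and with the microglia marker rule. In quiescent cells 5 genes of this list passed the filter and 0 were called, with a median of 1.22. Over all genes there 2.37% were called and the median was 0.03. Ifitm3 needed its PT D1 libraries to pass that filter, so this median too is a description only. Lcn2 had no UMI in NSPCs, which allows up to 3 UMIs in all. The study lists Socs3 among the genes of the microglial cluster that prevailed 1 day after PT. In microglia the genes of this list summed to 6266 CPM in PT D1 library 2 and 1211 to 2093 CPM in the other libraries. The part of microglial RNA in the NSPC levels of these genes was not tested.

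The genes whose level followed each member most closely were sought among 4897 genes over the same 23 sums of library and subtype. The sums share libraries and subtypes, so the values describe the cell type pattern. For Gfap they were Gabrb1, Gstm1 and Cpe (Pearson r 0.89 to 0.85), for Aqp4 Fxyd1, Itm2b and Pla2g7 (0.85 to 0.79) and for Gja1 Notch2, Ntsr2 and Htra1 (0.96 to 0.92). Slc1a2 was followed by Prdx6, Atp1b2 and Gstm5 (0.97 to 0.91), Slc1a3 by Ugp2 and Dbi (both 0.91) and Glul by C4a, Cst3 and Htra1 (0.95 to 0.94). For Aldoc they were Ptn, Itm2b and Slc7a2 (0.92 to 0.90), for Clu Itm2b, Gstm1 and Gnao1 (0.89 to 0.88) and for Fam107a Pea15a, Gstm1 and C4a (0.88 to 0.83). C4a and the glutathione transferases have near-identical copies among which counting could divide reads. Hopx had no close neighbour, with Gsto1 at 0.75, Mgrn1 and Asprv1. Among the 45 pairs of the set itself r ran from 0.10 for Gfap and Hopx to 0.88 for Slc1a3 and Gja1, with a median of 0.71.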

How the data were processed

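UMI counts of 34203 genes in 658 SVZ cells from 6 libraries were used, together with the authors' table of library, condition, class and subtype of each cell. What the authors deposited are raw UMI counts, not normalized, made from mCEL-Seq2 reads demultiplexed with bcl2fastq 2.17.1.14 and, per the labels, aligned to GRCm39. No source used here gives the aligner, the counter or the annotation. By the study's methods, cells at or below 1000 UMIs or above 25% mitochondrial UMIs had been removed, as had cells far from the median depth, taken as putative doublets. No doublet caller was run here. The cell annotation has 18 columns, of which 15 were not used. The 92 spike-in rows held 0 UMIs.

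UMIs were summed per library over NSPCs, over each subtype (at least 2 cells) and over microglia, and tested with edgeR 4.0.16 (TMM, filterByExpr, quasi-likelihood F-test) with the 3 conditions fitted together. Sums over library and subtype were tested with limma 3.58.1 (voom, library as block). All genes tested in a fit entered its Benjamini-Hochberg adjustment. Both tools were run on simulated data whose sums were drawn independently. That run cannot show how the limma fit handles sums that share a library. Libraries and not cells were the replicates in the edgeR fits, and sums over library and subtype were the units of the limma fits. Levels in CPM are unscaled, intervals are Clopper-Pearson at 95%, and a count of 0 was taken to allow 3 UMIs. Reclustering of the NSPCs used Seurat 5.3.0, sctransform 0.4.2 and R 4.3.3. DESeq2 1.42.0, other normalization, filters, cells and libraries, and the library number as a block were the alternatives. Those for activated type B and type C cells and for list genes, and the thinned cells and the microglia marker rule in quiescent cells, were chosen after seeing the data.

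The 10 genes, the pathway and marker lists and the tests were chosen with earlier results of these data known. Besides the 10 genes, the text names list members called in NSPCs or quiescent type B cells (at most 4 per list and comparison), the 3 genes most correlated with each member (1 of them is not reported here), and markers that moved with a condition. Glul and Fam107a in activated type B cells are members of the set. Deviations of same-numbered libraries from their condition means correlated at 0.095, -0.058 and -0.041 in NSPCs and 0.034, 0.019 and 0.088 in quiescent cells.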

Additional observations from a re-analysis of the deposited data

Results flagged for a closer look

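In quiescent type B cells Gja1 lay on opposite sides of the uninjured libraries at both times. The mean of the PT D1 libraries was 0.327 times the uninjured mean, with both libraries below both uninjured ones, and that of the PT D7 libraries was 1.12 times it, with both above. The fitted difference of PT D7 from uninjured was smaller than its standard error, so no rise at PT D7 was detected. Of all genes tested 34.2% had PT D7 libraries that did not overlap the uninjured ones. The difference between PT D7 and PT D1 missed the threshold (edgeR, adjusted p = 0.0691), and both ratios share the uninjured libraries.

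Fam107a differed in sign between subtypes at PT D1, as a difference of mean CPM against uninjured. The difference was 741 CPM in quiescent type B cells, 133 CPM in activated type B cells, 59.3 CPM in type C cells and -49.8 CPM in neuroblasts. The neuroblast libraries held 0 Fam107a UMIs at PT D1, which allows up to 166 and 47.7 CPM, against 90.2 and 9.34 CPM from 3 and 2 UMIs in uninjured mice. Uninjured library 1 had 0 Fam107a UMIs in type C cells, which allows up to 125 CPM, against 29.1 and 97.9 CPM at PT D1. A direction in neuroblasts and type C cells was therefore not detectable at this depth. Glul was 347 CPM higher in activated type B cells and -75.0 CPM from uninjured in neuroblasts. The limma-voom interaction of quiescent type B cells with neuroblasts called none of 2625 genes (Fam107a adjusted p = 0.835, Glul 0.836), 172 genes had an unadjusted p under 0.05, and the differences of the activated type B and type C cells from neuroblasts were not tested.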

How the results depend on the processing

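Of 251 alternative values 173 were counted as like the main one. For a count of calls this meant an equal or similar count, whichever genes made it up. Counts of 0 that stayed at 0 are included. So are the redrawn clusters and the rule of at least 1 cell per library in quiescent type B cells, which repeat the main fit. For the fold change of a called gene it meant the same direction and the same side of the threshold. For a ratio with the mix held it meant a shift smaller than the spread between libraries. At PT D7 against uninjured no gene of the set was called in NSPCs, quiescent, activated type B or type C cells, or with subtype as a term, under any alternative run, and in type C cells none at PT D1. In NSPCs at PT D1 the 2 calls became 0 with DESeq2, and with at least 10 counts in every library (6 genes tested, without Gfap and Gja1). They became 0 with cells of at most 10% mitochondrial UMIs, where 48 NSPCs were left and the Gfap log2 fold change was 4.36. Cells thinned to 1000 UMIs gave 0 calls among 6 genes tested, and Gfap was under the filter there. The count was 0 with the microglia marker rule, 1 with the replicate block, and varied with 1 library left out. Under the marker rule Gfap was -0.68 and Fam107a -0.53. In quiescent type B cells at PT D1 the 1 call became 0 with DESeq2, without the filter and with the marker rule. It became 0 with at most 10% mitochondrial UMIs, where 23 quiescent cells were left and the Gfap log2 fold change was 4.18. Thinned cells gave 0 calls among 6 genes tested, and Gfap was under the filter there. The count was 2 with the replicate block and varied with 1 library left out. With subtype as a term the 2 calls were 0 to 3 with 1 library left out, 0 without PT D1 library 2 or uninjured library 2. Between PT D7 and PT D1 in NSPCs 0 calls became 1 without the filter and 0 to 2 with 1 library left out, and without any of 5 libraries at least 1 gene was called, PT D7 library 2 being the exception. The same comparison in quiescent type B cells went from 0 calls to 1 with the replicate block and 0 to 1 with 1 library left out. In activated type B cells 2 genes were under the threshold, of which Fam107a is a description only. This count became 0 with DESeq2, without the filter, with the replicate block and with redrawn clusters, and 1 without TMM. It was also lower with any 1 library left out. With the mix held, the Gfap ratio was 2.64 to 5.47 and the Gja1 ratio 0.193 to 0.394 with 1 library left out. The causes were not tested.

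Library numbers do not pair these samples by the check on their deviations. As numbered here, library 1 of every condition had fewer NSPCs (15 to 19 against 52 to 61) and a higher median mitochondrial share in them. The replicate block thus also sets small libraries against large ones. For the PT D7 libraries the library number is itself not certain. With the replicate block 88 genes were called in NSPCs at PT D1 in place of 104, and 35 in quiescent type B cells in place of 12. DESeq2 called 17 and 3. Without TMM the median of all genes in quiescent cells at PT D1 was 0.21 in place of 0.03, and Gfap was called as before. Depth limits the result: the quiescent cells of library 1 of each condition held 14388 to 24840 UMIs, and Hopx, Aqp4 and Gja1 rested on at most 86 UMIs in any library.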

Other observations

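Hopx had a second place of expression among the sorted cells. The 41 microglia that the authors annotated as development-associated held 145 of the 225 Hopx UMIs of microglia, at 615 CPM, against 18.6 to 57.2 CPM in the other microglial classes and 110 CPM in quiescent type B cells. Of these 41 cells 35 came from PT D1 library 2, at 597 CPM, and the 6 cells of other libraries held 859 CPM from 14 UMIs. Microglia of that library held 310 CPM of Hopx as a whole, against 27.8 to 66.2 CPM in the other 5 libraries.

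Glul was present in every microglial class, from 346 to 820 CPM, and was highest in the homeostatic class. Slc1a3 was likewise at 244 CPM in homeostatic microglia and 63.2 to 175 CPM in the other classes. The 20 cells of the mixed class held 1502 CPM of Clu and 241 CPM of Aqp4 but 59.0 CPM of Aldoc and 139 CPM of Slc1a2, while quiescent type B cells held 4018, 442, 2434 and 5528 CPM of the same genes. These are values of classes defined by expression and carry no test.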
